A study of Homo sapiens with 15 samples.

Results

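Metallothioneins are small, cysteine-rich proteins that bind zinc and copper, buffer free metal ions in the cell and can scavenge reactive oxygen. Their transcription is known to be driven by the zinc-sensing factor MTF1 at metal response elements, and glucocorticoids and stress also induce them. MT2A is the main isoform of most human tissues, whereas the MT1 genes form a set of tandem copies that are expressed in varying combinations. The genes described here are MT1E, MT1F, MT1G, MT1M, MT1X and MT2A, selected by symbol, that is, 6 of the 37787 genes in the count table. All 6 passed the filter on low counts and were among the 13868 genes tested.

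To investigate how FOXL2, SMAD3 and FOXO1 shape the transcriptome, HGrC1 cells were profiled by RNA sequencing in 15 libraries, 3 for each of 5 conditions. HGrC1 is 1 immortalized, non-luteinized human granulosa cell line with normal alleles of FOXL2, used at passage 14. Control cells received empty vectors (Vectors). All other cells received a SMAD3 plasmid, together with wild-type FOXL2 (FOXL2WT) or the mutant of adult granulosa cell tumors (FOXL2C134W), each without or with FOXO1. The FOXO1 plasmid encodes FOXO1-3A, a constitutively active form that stays in the nucleus. Because the plasmids were transiently transfected by lipofection for 4 h and RNA was taken after another 24 h without serum, each library averages transfected and untransfected cells. Fewer cells expressing a gene and less RNA per cell cannot be told apart. There was no condition with SMAD3 alone, so the comparisons against Vectors hold SMAD3 and FOXL2 together. The labels do not say whether replicates A, B and C came from separate experiments, and p-values measure the spread between these libraries only.

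Library totals ran from 14962245 to 25339094 estimated counts. The plasmid genes followed the labels: FOXL2 averaged 8.73 CPM (counts-per-million) in Vectors, 560.6 in FOXL2WT, 147 in FOXL2C134W, 384 in FOXL2WT+FOXO1 and 152 in FOXL2C134W+FOXO1. SMAD3 averaged 249 CPM in Vectors, 2768 in FOXL2WT, 843 in FOXL2C134W, 969 in FOXL2WT+FOXO1 and 392 in FOXL2C134W+FOXO1. FOXO1 averaged 117 CPM in FOXL2WT+FOXO1 and 43.2 in FOXL2C134W+FOXO1, against means of at most 13.2 in the other 3 conditions. The amount of plasmid RNA therefore differed between conditions, and its part in the values below was not tested. By immunoblot, the paper reports that FOXL2WT, FOXL2C134W and FOXO1 protein levels were balanced. Of 13 granulosa markers 9 passed the filter, among them GATA4 at 129 to 154 CPM and WT1 at 38.8 to 47.7 CPM. FSHR, the receptor for follicle-stimulating hormone, had 0 counts in all 15 libraries, and CYP19A1 (aromatase) and INHA (the inhibin alpha subunit) had at most 4 in any library.

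The 6 genes lie within 75.6 kb on chromosome 16, in the order MT2A, MT1E, MT1M, MT1F, MT1G and MT1X (GENCODE 44, GRCh38). MT2A spans positions 56608584 to 56609497 and MT1E positions 56625475 to 56627112. MT1M spans 56632659 to 56633981, MT1F 56657731 to 56660698, MT1G 56666730 to 56668065 and MT1X 56682470 to 56684196. Only MT1G is on the minus strand among these 6. Because the genes are close copies, their coding sequences are shown for MT2A and MT1E, the most abundant, and for MT1X and MT1G, which share the longest stretches. Sequences run from the start codon to the stop codon, 5′ to 3′, and capitals mark bases that do not match MT2A in a pairwise alignment.
MT2A: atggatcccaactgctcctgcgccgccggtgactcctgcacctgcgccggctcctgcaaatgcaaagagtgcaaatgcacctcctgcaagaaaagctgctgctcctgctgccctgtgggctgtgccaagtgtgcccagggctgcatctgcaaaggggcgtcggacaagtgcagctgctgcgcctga
MT1E: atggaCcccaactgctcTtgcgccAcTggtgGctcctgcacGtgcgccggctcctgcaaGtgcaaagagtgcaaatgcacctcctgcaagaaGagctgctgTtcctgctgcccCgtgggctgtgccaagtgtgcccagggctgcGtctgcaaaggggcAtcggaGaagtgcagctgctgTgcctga
MT1X: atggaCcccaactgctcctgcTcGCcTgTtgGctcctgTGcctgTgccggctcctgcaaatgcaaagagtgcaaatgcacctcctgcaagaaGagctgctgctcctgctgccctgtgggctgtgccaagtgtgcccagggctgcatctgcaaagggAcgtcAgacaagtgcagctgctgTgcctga
MT1G: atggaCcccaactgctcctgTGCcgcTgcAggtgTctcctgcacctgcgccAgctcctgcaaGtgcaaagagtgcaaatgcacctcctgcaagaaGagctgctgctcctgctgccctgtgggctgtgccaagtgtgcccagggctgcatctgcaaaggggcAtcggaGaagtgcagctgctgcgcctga

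MT2A, MT1E, MT1F, MT1M and MT1X each have a coding sequence of 186 bases and MT1G one of 189, and each of the 6 holds 20 cysteine codons, the residues that bind the metals. Identity between pairs of these coding sequences ran from 88.7% (MT1F and MT1X) to 93.7% (MT1G and MT2A). Reads were 75 bases long, and the full transcripts, which include the untranslated ends, set how far a read can tell the copies apart. Windows of 75 bases were searched in 1 transcript per gene (MT2A-201, MT1E-201 and so on), and other transcripts such as MT2A-204, MT1E-203 and MT1F-202 were not searched. No window of MT2A-201, MT1F-201 or MT1M-201 occurred in another gene of GENCODE 44. MT1E shared 5 of its 630 windows, with the pseudogenes MT1JP and MT1P3. MT1G shared 22 of 336 windows, with MT1X and MT1XP1. MT1X shared 119 of 330 windows, or 36.1%, with MT1G, MT1XP1 and a further annotated locus. The counts of MT1X, and less so of MT1G and MT1E, are therefore uncertain where salmon divided reads between copies. Exact windows do not show every such division. MT1M-201 was the only MT1M transcript with reads, yet salmon gave it a read number that was not whole in 13 of 15 libraries. Some MT1M reads were thus also divided with other genes.

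Metal response elements are the sites through which zinc reaches these genes, so the upstream sequence of the 2 members in the RefSeq promoter table, MT2A and MT1X, is given (GRCh38.p14, plus strand, the 250 bases before the annotated start). The promoters of MT1E, MT1F, MT1G and MT1M are named only. Capitals mark the metal response element core, TGCACNC or TGCGCNC, on either strand.
MT2A, chr16:56608334-56608583: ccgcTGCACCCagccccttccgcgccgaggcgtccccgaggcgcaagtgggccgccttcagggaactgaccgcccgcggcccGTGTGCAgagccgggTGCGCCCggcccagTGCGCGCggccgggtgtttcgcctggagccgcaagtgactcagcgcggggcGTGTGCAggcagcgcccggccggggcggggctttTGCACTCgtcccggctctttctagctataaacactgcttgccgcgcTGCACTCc
MT1X, chr16:56682220-56682469: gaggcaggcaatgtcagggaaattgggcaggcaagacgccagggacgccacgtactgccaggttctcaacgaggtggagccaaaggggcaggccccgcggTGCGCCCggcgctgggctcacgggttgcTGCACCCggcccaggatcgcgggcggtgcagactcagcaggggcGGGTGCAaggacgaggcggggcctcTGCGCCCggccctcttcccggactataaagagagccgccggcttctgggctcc

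Over the whole 300-base table entry, which runs on 50 bases past the start, MT2A held 8 such cores (7 of them in the stretch shown) and MT1X 4. By comparison, 29.6% of all 35116 promoters of the table held at least 1 core and 0.601% held 4 or more. The forkhead core TAAACA, the family motif of FOXL2 and FOXO1, occurred once in MT2A, 27 bases before the start, and in 12.3% of all promoters. It had no match in MT1X. The SMAD palindrome GTCTAGAC had no match in either, and was found in 0.202% of all promoters. The motifs overlap each other nowhere in these 2 sequences, and the matches are of letters only.

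Levels differed far more between the genes than between conditions. Per transcript length, as TPM (transcripts-per-million, summed over the transcripts of a gene), the median over the 15 libraries was 2039 for MT2A, 657 for MT1E, 77.8 for MT1X, 17.9 for MT1F, 14.3 for MT1M and 3.08 for MT1G. This order held for neighbours without overlap between libraries, except for MT1F and MT1M: MT1F was the higher in 14 of 15 libraries, but its lowest TPM (15.7) lay under the highest of MT1M (22.2). TPM rests on the effective lengths by which salmon divides, and these were short. Their medians were 152 bases for MT2A-201 and 83.0 for the MT1E transcript MT1E-203. MT1E-203 took 46.7% of the MT1E reads but averaged 532 TPM, where the whole gene averaged 643. In counts, MT2A ran from 4641 to 8492 per library, MT1E from 1266 to 2125 and MT1X from 157 to 297. The other members had few reads, with 41 to 101 counts for MT1F, 27 to 71 for MT1M and 4 to 25 for MT1G.

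**Figure D1:**
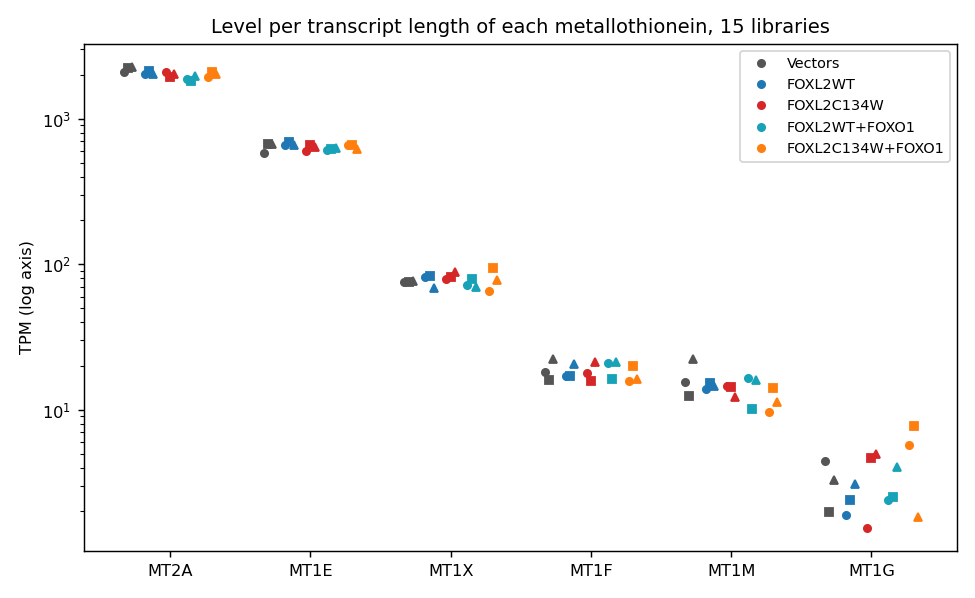
TPM of each of the 6 genes on a log axis, 1 point per library, colored by condition (circle, square and triangle for replicates A, B and C). MT2A, with a median of 2039 TPM, and MT1E, with 657, stand above the other 4 genes in every library, and the libraries of MT1F and MT1M overlap.

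The 6 genes together measured 368.8 to 441.9 CPM in a library, and made up 98.8% to 99.3% of the CPM of all 20 metallothionein symbols in the table. MT2A alone held 73.4% to 76.9% of that sum and MT1E 18.4% to 21.5%. Of the 14 other symbols, only MT1A (6 to 28 counts) and MT1L, a transcribed pseudogene (35 to 90 counts), passed the filter. MT1B, MT4, MT1HL1, MT1CP, MT1P1 and MT1P3 had 0 counts in all 15 libraries. MT1H, MT1DP, MT1JP, MT1XP1, MT2P1 and MT3, known as the brain isoform, had at most 6 counts in any library. Over all metallothionein symbols the summed CPM was 428 ± 28.1 in Vectors, 413 ± 5.48 in FOXL2WT, 395 ± 23.3 in FOXL2C134W, 399 ± 24.6 in FOXL2WT+FOXO1 and 398 ± 18.5 in FOXL2C134W+FOXO1 (mean ± SD, n = 3). These ranges overlapped in each of the 9 pairs of conditions compared.

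MT2A had the clearest pattern. It measured 303, 340.3 and 339.5 CPM in Vectors A, B and C and 306, 315 and 308 CPM in FOXL2WT. In FOXL2C134W it measured 319, 275 and 292 CPM. With FOXO1 it measured 312, 276 and 302 CPM in FOXL2WT+FOXO1 and 291, 312 and 291 CPM in FOXL2C134W+FOXO1. Vectors B and C thus stood above all 12 other libraries, whereas Vectors A was above 6 of the 12, and the ranges overlapped in every comparison.

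MT2A was lower than in Vectors in each of the 4 conditions with SMAD3 and FOXL2 plasmids. The log2 fold changes were -0.08 in FOXL2WT, -0.15 in FOXL2C134W, -0.14 in FOXL2WT+FOXO1 and -0.14 in FOXL2C134W+FOXO1 (SE 0.057 to 0.058). All 4 share the Vectors libraries and are not independent. In edgeR's quasi-likelihood test with Benjamini-Hochberg adjustment over all genes the smallest adjusted p was that of FOXL2C134W (0.0878), followed by FOXL2C134W+FOXO1 (0.150), FOXL2WT+FOXO1 (0.203) and FOXL2WT (0.451), so none passed the threshold of 0.05. The adjusted p for FOXL2C134W ran from 0.0164 to 0.384 over 16 alternative settings and was under the threshold in 4, among them without Vectors A (0.0354) or without FOXL2C134W A (0.0201). For MT2A, Vectors A was the lowest Vectors library (303 CPM) and FOXL2C134W A the highest of its condition (319 CPM). Leaving out either therefore widens the difference by itself and is no added support. For FOXL2WT+FOXO1 it ran from 0.00296 to 0.458 and was under the threshold in 3. FOXL2C134W A stood apart from its replicates over all genes, where the chi-square of its counts divided by the degrees of freedom was 7.81 against B and 8.84 against C, and 2.60 between B and C. FOXL2WT+FOXO1 A did likewise (6.64 and 6.65, against 2.82 between B and C). Vectors A did so to a lesser degree (4.15 and 3.66, against 2.21 between B and C). FOXL2C134W+FOXO1 was uneven as well, at 4.19 between A and B, 5.02 between A and C and 7.23 between B and C. In FOXL2WT these values were 2.31, 2.61 and 3.17. MT2A was lower than in Vectors under all 16 settings in each of the 4 comparisons. The settings refit the same libraries, so the unchanged sign is not independent support. CD68, an immune marker that was also lower than in Vectors in all 4 conditions, averaged 110 CPM in Vectors and 91.3 to 94.9 CPM in the others (edgeR adjusted p from 0.00245 to 0.0144), while PTPRC, the other immune marker of the list, had at most 5 counts in any library. All libraries came from the same granulosa cell line, so CD68 was not taken as a measure of immune cells. A link between the CD68 and MT2A values was not tested.

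MT1E, the second most abundant, did not follow MT2A in its condition means. It measured 74.1, 81.4 and 85.0 CPM in Vectors, 84.0, 85.0 and 82.7 CPM in FOXL2WT and 82.0, 80.3 and 78.3 CPM in FOXL2C134W. In FOXL2WT+FOXO1 it measured 87.4, 77.4 and 80.7 CPM, and in FOXL2C134W+FOXO1 82.8, 83.8 and 74.5 CPM. The FOXL2C134W libraries all lay just under the FOXL2WT libraries, but the difference was small (log2 fold change -0.06, SE 0.057, edgeR adjusted p = 0.526). In the other 8 pairs of conditions its libraries overlapped. Its 95% intervals over all comparisons allowed folds between 0.880 and 1.16.

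MT1X, an MT1 copy expressed in many tissues, measured 9.94, 10.5 and 10.4 CPM in Vectors and 10.7, 10.9 and 11.7 CPM in FOXL2C134W. These libraries did not overlap, with a log2 fold change of 0.12 (SE 0.11, edgeR adjusted p = 0.533). Its widest spread was within FOXL2C134W+FOXO1, at 8.86, 12.7 and 10.3 CPM, which covered the range of all other libraries.

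MT1F ranged from 2.59 to 4.19 CPM, and its libraries overlapped in all 9 pairs of conditions. MT1M measured 1.92, 1.58 and 2.84 CPM in Vectors and 1.25, 1.79 and 1.42 CPM in FOXL2C134W+FOXO1, and its libraries in the latter condition all lay under those of FOXL2WT (1.81, 1.95 and 1.88 CPM). The log2 fold change of MT1M in FOXL2C134W+FOXO1 was -0.52 against Vectors (SE 0.25, edgeR adjusted p = 0.214) and -0.33 against FOXL2WT (SE 0.26, adjusted p = 0.526). Without Vectors C, the former became -0.24. MT1G, a copy often studied as silenced in tumors, had the largest fold and the fewest reads: 13, 5 and 4 counts in Vectors against 17, 25 and 6 in FOXL2C134W+FOXO1. Its log2 fold change there was 1.104 (SE 0.54, edgeR adjusted p = 0.225), with a 95% interval from -0.03 to 2.24, and without Vectors A it was 1.78.

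**Figure D2:**
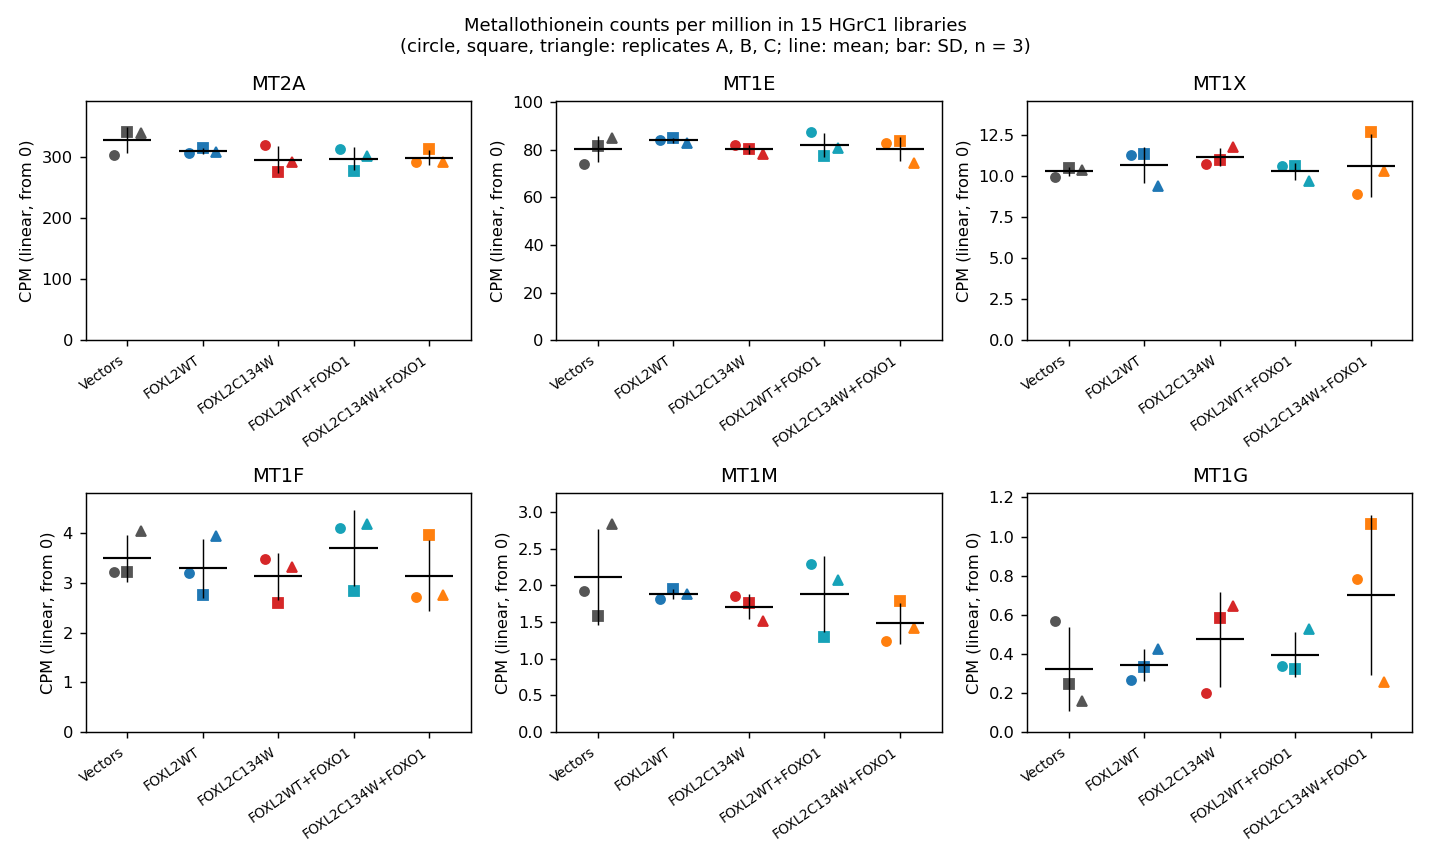
CPM of each gene in every library, on linear axes that start at 0, with the mean and SD of each condition (n = 3, replicates A, B and C as circle, square and triangle). Vectors B and C are the 2 highest points of MT2A, the conditions of MT1E lie between means of 80.2 and 83.9 CPM, and the points of MT1G scatter from 0.160 to 1.06 CPM.

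Of the 60 tests of a metallothionein in 10 comparisons, edgeR called 0 at an adjusted p under 0.05. At an unadjusted p under 0.05 there were 3, all of MT2A against Vectors (FOXL2C134W, FOXL2WT+FOXO1 and FOXL2C134W+FOXO1). DESeq2 also called 0, both on the deposited counts (37 tests with an adjusted p) and with transcript length offsets (51 tests). Against Vectors, 0 of 6 genes were called in FOXL2WT, where 6.07% of all genes were called. The same 0 of 6 stood beside 14.7% in FOXL2C134W, 3.78% in FOXL2WT+FOXO1 and 9.33% in FOXL2C134W+FOXO1. Between FOXL2C134W and FOXL2WT 0 of 6 were called beside 11.2% of all genes, and between FOXL2C134W+FOXO1 and FOXL2WT 0 of 6 beside 1.69%.

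The remaining comparisons, with and without FOXO1 or between FOXL2 forms with FOXO1, also called 0 of 6 metallothioneins, and few genes at all. None of them isolates FOXO1, since SMAD3 RNA differed as well. SMAD3 averaged 969 CPM in FOXL2WT+FOXO1 against 2768 in FOXL2WT, and 392 in FOXL2C134W+FOXO1 against 843 in FOXL2C134W. FOXL2 averaged 384 CPM in FOXL2WT+FOXO1 against 560.6 in FOXL2WT. It was similar in FOXL2C134W+FOXO1 (152 CPM) and FOXL2C134W (147 CPM), where edgeR did not call it. In FOXL2C134W+FOXO1 against FOXL2C134W 0.714% of all genes were called, in FOXL2WT+FOXO1 against FOXL2WT 0.0505%, and in FOXL2C134W+FOXO1 against FOXL2WT+FOXO1 0.144%. The interaction, that is, the FOXO1 change in the FOXL2C134W background minus that in the FOXL2WT background, was called for 1.38% of all genes. With only 6 genes, a count of 0 says little beside these low backgrounds. It also says little beside the higher backgrounds of the comparisons above, of which 14.7% was the largest. The largest FOXO1 interaction of a member was that of MT1G, at 0.38 on the log2 scale (SE 0.81).

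A p above the threshold does not show equal levels, and the 95% intervals give what these libraries leave possible. Over the 10 comparisons they reached folds of 0.829 to 1.19 for MT2A and 0.782 to 1.27 for MT1X. For MT1F they reached 0.605 to 1.48, for MT1M 0.488 to 1.48 and for MT1G 0.401 to 4.73. A change of 1.5-fold therefore lay outside every interval of MT2A, MT1E and MT1X, while for MT1G a change of 2-fold lay within some of its intervals.

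**Figure D3:**
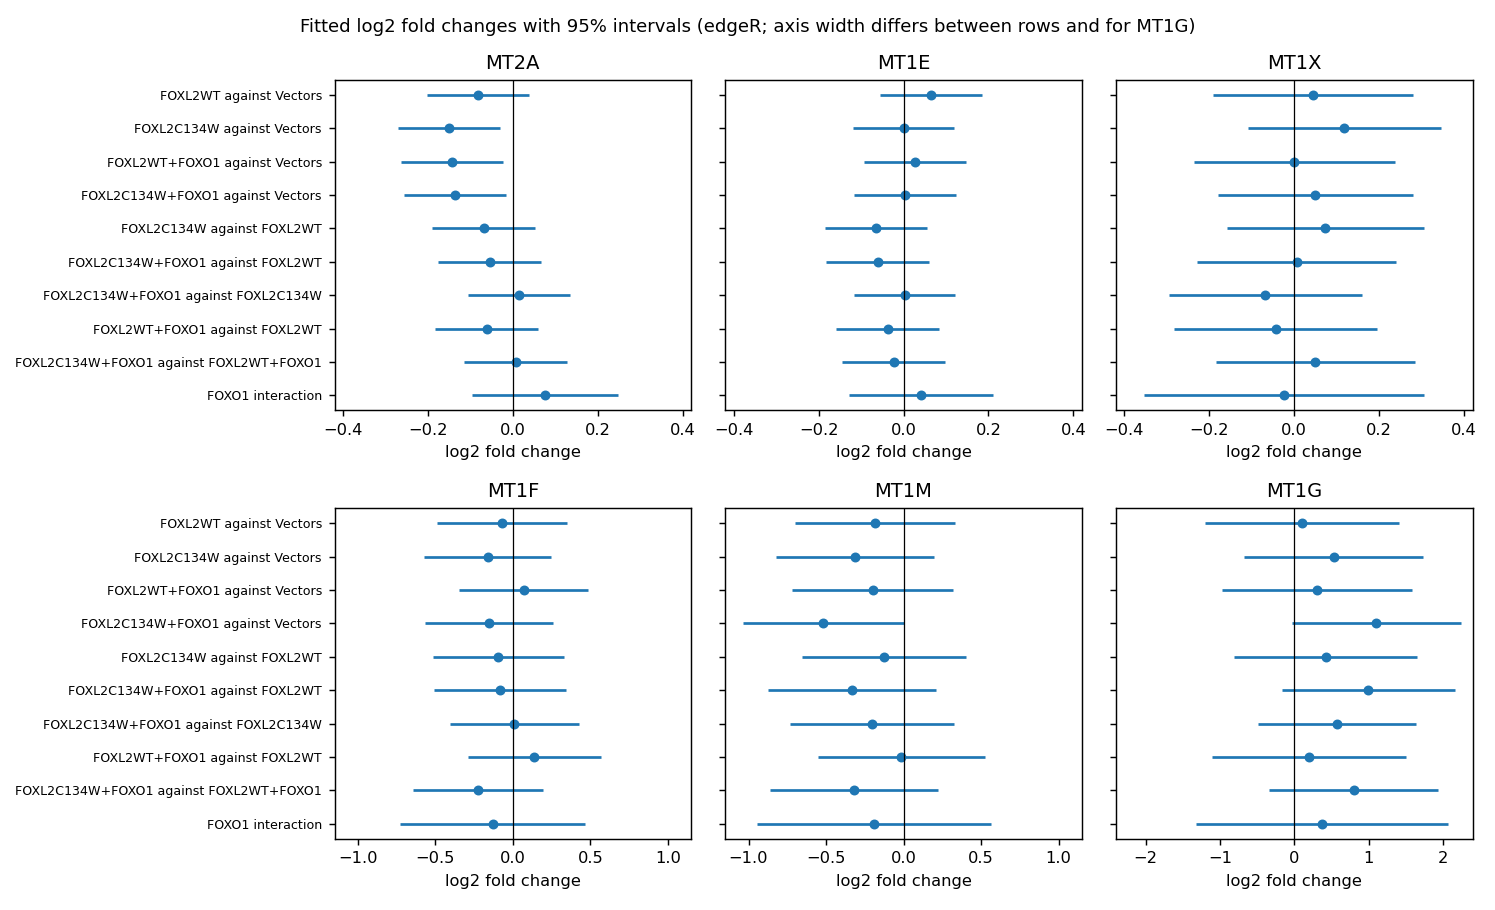
Log2 fold change of each gene (point) with its 95% interval (line) in each of the 10 comparisons, from the edgeR fit, with axes that differ in width. The MT2A points against Vectors lie between -0.15 and -0.08, and the interval of MT1G in FOXL2C134W+FOXO1 against Vectors runs from -0.03 to 2.24.

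Set beside all genes tested, the 2 abundant metallothioneins were among the steadier ones. The means of the 5 conditions spanned 0.067 on the log2 scale for MT1E, 0.12 for MT1X and 0.15 for MT2A, against a median span of 0.21 over all 13868 genes. The SD between replicates of a condition was 0.075 for MT1E and 0.081 for MT2A, against a median of 0.10. Spans of 0.23 for MT1F, 0.46 for MT1M and 0.88 for MT1G came with replicate SDs of 0.26, 0.29 and 0.64. These are descriptions, since spread depends on read number.

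The balance between MT2A and MT1E was examined as a ratio. MT2A CPM was 4.08, 4.18 and 4.00 times that of MT1E in Vectors A, B and C. The ratio was 3.65 to 3.72 in FOXL2WT, 3.42 to 3.89 in FOXL2C134W, 3.57 to 3.74 in FOXL2WT+FOXO1 and 3.51 to 3.90 in FOXL2C134W+FOXO1. In CPM, each Vectors library thus lay above all 12 others. In TPM, which rests on the effective lengths of the transcripts, the ratio was 3.36 to 3.59 in Vectors. The Vectors range overlapped with FOXL2C134W (2.93 to 3.47), but not with the other 3 conditions. For Vectors against every other condition, the two-sided exact permutation test of the CPM ratio gave p = 0.10. That is the smallest that 3 libraries against 3 can give. After adjustment over the 45 such tests made (5 measures in 9 pairs of conditions) p was 0.45. No pair passed the threshold, and the ratio was singled out after its values were seen. Library size cancels in the ratio. The log2-CPM of MT2A and MT1E had r = 0.51 across the 15 libraries, and 0.72 after the mean of each condition was removed. Both genes share the scaling of each library, so these correlations are descriptions.

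Salmon divides the reads of a gene between its transcripts. MT2A-201, the coding transcript, took 77.4% to 83.4% of the MT2A reads and MT2A-204, annotated as a processed transcript of 688 bases, 16.4% to 22.4%. The MT2A-204 share was 21.0% to 22.4% in FOXL2WT+FOXO1, above all libraries of Vectors (18.6% to 20.3%), FOXL2WT (18.3% to 19.8%) and FOXL2C134W+FOXO1 (18.02% to 20.1%). It overlapped with FOXL2C134W, which ran from 16.4% to 21.9%. Each of the 3 differences without overlap had an exact permutation p of 0.10, the smallest possible, and an adjusted p of 0.45.

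Per transcript length, MT2A separated FOXL2WT+FOXO1 from Vectors, which CPM did not. It averaged 1891 ± 75.4 TPM in FOXL2WT+FOXO1 against 2198 ± 91.5 in Vectors (SD, n = 3), without overlap. FOXL2WT+FOXO1 also lay under FOXL2WT (2062 ± 46.7 TPM) without overlap, and FOXL2C134W (2018 ± 85.9 TPM) just under Vectors. The highest FOXL2C134W library, at 2092 TPM, nearly met the lowest Vectors library, at 2094 TPM. Each of these 3 differences had an exact permutation p of 0.10 and an adjusted p of 0.45. The TPM of MT2A and the MT2A-204 share are not separate observations, since both rest on how salmon divided the same reads. MT2A-204 has the longer median effective length (439 bases, against 152 for MT2A-201), so a larger MT2A-204 share lowers the summed TPM for a given number of reads.

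**Figure D4:**
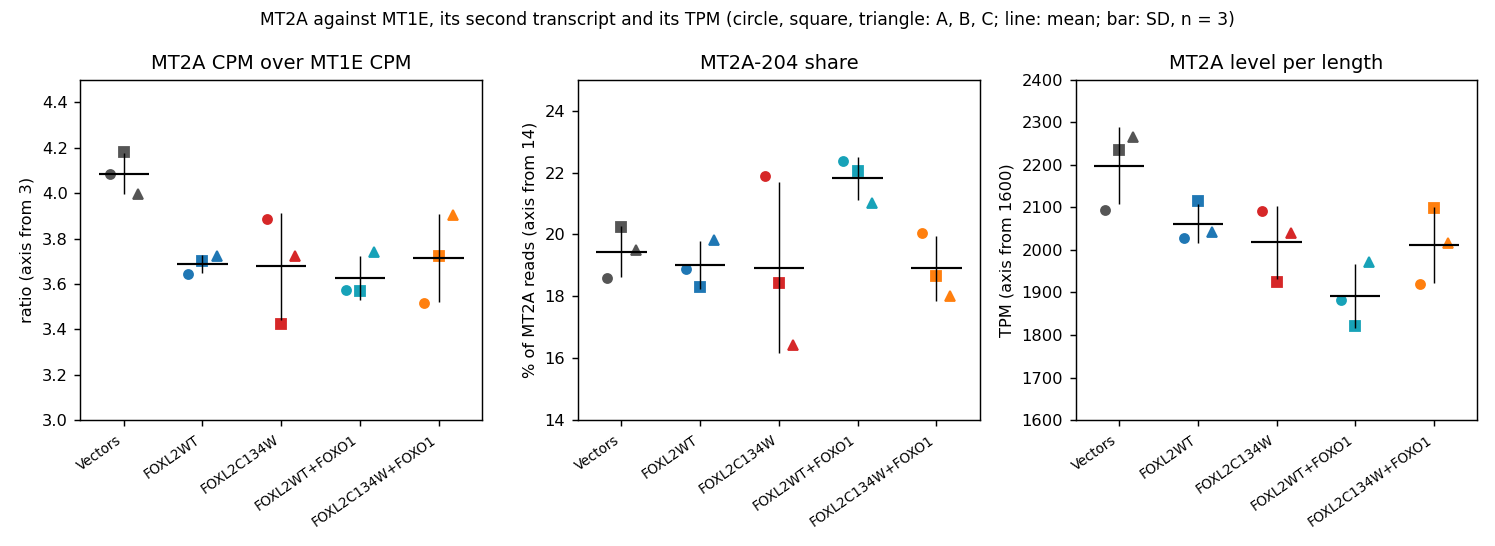
The ratio of MT2A to MT1E CPM (left), the share of MT2A reads assigned to MT2A-204 (middle) and MT2A TPM (right) in every library, with the mean and SD of each condition (n = 3) and axes that do not start at 0. The 3 Vectors libraries (4.00 to 4.18) lie above all others in the ratio, and the 3 FOXL2WT+FOXO1 libraries have MT2A-204 shares of 21.0% to 22.4%.

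MT1E reads were divided almost evenly between MT1E-201 (48.9% to 56.9%) and MT1E-203 (41.7% to 49.8%), both annotated as coding, and the MT1E-203 share overlapped in all 9 pairs of conditions. MT1F-202, a transcript with a retained intron, took 6.13% to 28.1% of the MT1F reads. MT1X-201 held 94.5% to 98.5% of the MT1X reads, and MT1M reads all went to MT1M-201.

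The 2 other metallothioneins that could be tested, MT1A and MT1L, were called in 0 of their 20 tests by edgeR. In the pathway around the family, MTF1, the zinc sensor, measured 34.5 to 40.4 CPM and was called in no comparison, nor was SLC30A1, the plasma membrane zinc exporter that is induced with metallothioneins (97.7 to 118 CPM). Of 25 listed genes for the zinc sensor and zinc transporters 20 were tested, and 3 were called at least once, all zinc importers of the SLC39 family. SLC39A14 was higher in FOXL2WT than in Vectors (log2 fold change 0.14, adjusted p = 0.0467). In FOXL2C134W against FOXL2WT 0 of 20 were higher and 3 lower, beside 11.2% of all genes (989 of 13868 higher and 571 lower). The 3 were SLC39A14 (-0.21, adjusted p = 0.00304), SLC39A1 (-0.16, adjusted p = 0.0205) and SLC39A9 (-0.15, adjusted p = 0.0304). The list median in that comparison was -0.07 on the log2 scale, and that of all genes -0.01. In FOXL2C134W+FOXO1, SLC39A14 was lower than in FOXL2WT (-0.18, adjusted p = 0.0349) and SLC39A1 lower than in Vectors (-0.16, adjusted p = 0.0269). SLC39A1 was lower than in Vectors also in FOXL2C134W (-0.18, adjusted p = 0.00806).

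All 14 listed genes of copper handling were tested and 4 were called at least once, each time lower. The 2 of 14 called in FOXL2C134W against Vectors stood beside 14.7% of all genes, the 2 of 14 against FOXL2WT beside 11.2% and the 1 of 14 in FOXL2C134W+FOXO1 against Vectors beside 9.33%, so the shares were near the background. SOD1, the copper and zinc superoxide dismutase, fell from 190 ± 5.17 CPM in Vectors to 164 ± 2.14 in FOXL2C134W (log2 fold change -0.21, adjusted p = 0.00415) and to 170 ± 9.88 in FOXL2C134W+FOXO1 (-0.16, adjusted p = 0.0343). COX17, a mitochondrial copper chaperone, was lower in FOXL2C134W than in Vectors (-0.28, adjusted p = 0.0431). The copper transporters SLC31A1 (-0.16, adjusted p = 0.0158) and SLC31A2 (-0.32, adjusted p = 0.00863) were lower in FOXL2C134W than in FOXL2WT. The medians of this list were -0.07 against 0.00 for all genes in FOXL2C134W against Vectors, and -0.05 against -0.01 in FOXL2C134W against FOXL2WT.

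Glucocorticoids are a second known route of metallothionein induction, and 9 of 10 listed glucocorticoid-responsive genes were tested. In FOXL2WT against Vectors, 3 were higher and 1 lower, beside 6.07% of all genes (341 of 13868 higher and 501 lower). SGK1, a kinase of salt transport, rose from 334 ± 8.71 to 420 ± 27.9 CPM (log2 fold change 0.33, adjusted p = 0.000231). TSC22D3, the leucine zipper protein GILZ, rose by 0.39 (adjusted p = 0.0129). DUSP1, a MAP kinase phosphatase, rose by 0.27 (adjusted p = 0.0422) and CRISPLD2 fell by 0.46 (adjusted p = 0.0474). In FOXL2C134W against FOXL2WT 3 of 9 were lower, beside 11.2% of all genes (989 of 13868 higher and 571 lower). These were TSC22D3 (-0.36, adjusted p = 0.0110), SGK1 (-0.16, adjusted p = 0.0267) and ERRFI1, an inhibitor of the EGF receptor (-0.13, adjusted p = 0.0226). In FOXL2C134W+FOXO1 against FOXL2WT, TSC22D3 was lower (-0.56, adjusted p = 0.00304). KLF9, a zinc finger transcription factor, was lower than in Vectors in FOXL2C134W (-0.20, adjusted p = 0.0427), FOXL2WT+FOXO1 (-0.24, adjusted p = 0.0438) and FOXL2C134W+FOXO1 (-0.29, adjusted p = 0.00642). SGK1 was higher than in Vectors in FOXL2C134W (0.17, adjusted p = 0.0195) and in FOXL2C134W+FOXO1 (0.19, adjusted p = 0.0127). NR3C1, the receptor itself, was called in no comparison.

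On the chromosome, 6 of 9 listed neighbours of the cluster were tested. HERPUD1, an endoplasmic reticulum stress gene, was lower than in FOXL2WT in FOXL2C134W (-0.28, adjusted p = 0.00306) and in FOXL2C134W+FOXO1 (-0.28, adjusted p = 0.0193). OGFOD1, a prolyl hydroxylase of ribosomes, was higher in FOXL2C134W+FOXO1 than in Vectors (0.14, adjusted p = 0.0458). The nearest tested genes on either side, BBS2 and NUP93, were called in none of the 10 comparisons by edgeR.

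**Figure D5:**
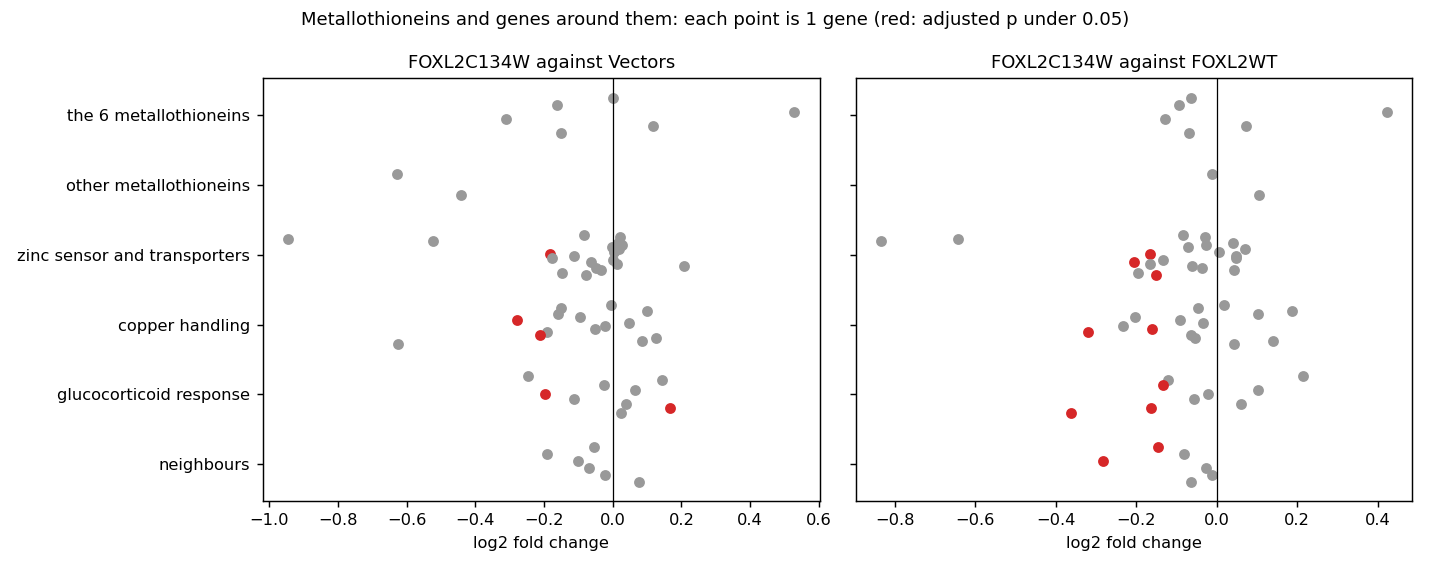
Log2 fold change of the 6 metallothioneins and of the genes in the lists, 1 point per gene, in FOXL2C134W against Vectors (left) and against FOXL2WT (right), with called genes in red. No metallothionein is red in either panel, the point at 0.53 on the left is MT1G, and the called SLC39A and SLC31A transporters lie left of 0 on the right.

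Across the 15 libraries the 6 genes did not form 1 pattern. Correlations of log2-CPM between pairs ran from -0.46 (MT1G and MT2A) to 0.68 (MT1F and MT1M), and all pairs with r over 0.4 were among MT2A, MT1E, MT1F and MT1M. The libraries share cells, depth and scaling, so these are descriptions. The mean standardized level of the 6 had among its closest matches TRAF2 (r = 0.80), FHL3 (0.80), FERMT3 (0.80) and AKT1 (0.79), and was most opposed to NEK4 (-0.84), ZFP91 (-0.84) and TMCC1 (-0.83), none of which was called in any comparison. It was highest in FOXL2C134W+FOXO1 B and lowest in FOXL2C134W+FOXO1 C, that is, at both ends within 1 condition.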

How the data were processed

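RNA from 15 HGrC1 libraries was sequenced as 75-base single-end stranded mRNA reads. The authors ran Salmon 1.1.0 on hg38 transcripts, summed to genes and rounded, and deposited estimated counts of 37787 genes without normalization. The deposited TPM values come from the same run, per transcript, and were summed to genes here. Groups and replicate letters came from the labels. The 6 metallothioneins, the gene lists and the motifs were chosen with earlier results of these data known. All libraries were fitted together with edgeR 4.0.16 (R 4.3.3; TMM, filterByExpr, quasi-likelihood test). Calls required p under 0.05 after Benjamini-Hochberg adjustment across the 13868 genes left by the filter, and log2-CPM had a prior count of 2. Alternatives were DESeq2 1.42.0 with and without transcript length offsets, its size factors, 2 other count filters, the compared groups only, a replicate block, gene length and GC content offsets, and leaving out each library. Ratios and shares were compared by exact permutation. Named genes are the 6, all other metallothionein symbols, up to 4 called genes per list and comparison, and the 5 most alike and 3 most opposed genes by correlation; some genes that this rule selects are not reported here. The scripts were tested on simulated data, where 83% of 1.5-fold changes were recovered in FOXL2C134W against FOXL2WT, in a fit over 13868 genes. The changes were set only in genes with a higher mean CPM than MT1G. This share therefore does not apply to MT1G, and MT1M lay near the lower limit of those genes. Intervals and counts of 0 cover counting error and the spread between libraries only, and 98.4% of the transcripts were found in GENCODE 44.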

Additional observations from a re-analysis of the deposited data

How the results depend on the processing

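Over 10 alternative settings and 15 left-out libraries, 981 values of single metallothioneins were recomputed. Of these, 872 kept their direction and stayed uncalled, 102 changed sign without being called and 7 were called, all of them MT2A, which was lower than in Vectors. The number of genes called in FOXL2C134W against Vectors went from 0 to 1 with a filter of at least 1 count in any sample (adjusted p = 0.0164) and with the GC content offset (0.0211). Leaving out 1 library at a time gave 0 to 1, with 1 without Vectors A (0.0354) or FOXL2C134W A (0.0201). These were the lowest Vectors library and the highest FOXL2C134W library of MT2A. In FOXL2WT+FOXO1 against Vectors the number went from 0 to 1 with the filter of at least 1 count in any sample (0.0450), with the gene length offset (0.00560) and with the length offset together with the replicate block (0.00296). The causes were not tested. All other comparisons stayed at 0 under each setting, left-out libraries included. The number of genes called over the whole table, the background of these counts, depended on the setting: over the 10 settings it ran from 936 to 2464 in FOXL2C134W against Vectors (2041 reported), from 459 to 1690 in FOXL2WT against Vectors (842), from 393 to 954 in FOXL2WT+FOXO1 against Vectors (524), from 714 to 1789 in FOXL2C134W+FOXO1 against Vectors (1294) and from 708 to 2041 in FOXL2C134W against FOXL2WT (1560). In FOXL2C134W+FOXO1 it ran from 233 to 1046 against FOXL2WT (234), from 32 to 463 against FOXL2C134W (99) and from 9 to 446 against FOXL2WT+FOXO1 (20). It ran from 7 to 260 in FOXL2WT+FOXO1 against FOXL2WT (7) and from 113 to 551 in the interaction (192). Leaving out 1 library at a time gave between 36 and 184 in FOXL2C134W+FOXO1 against FOXL2WT, 5 and 355 against FOXL2C134W, 7 and 20 against FOXL2WT+FOXO1, and 764 and 1122 against Vectors. The same range was 45 to 423 in the interaction, 772 to 2120 in FOXL2C134W against FOXL2WT, 1275 to 2126 in FOXL2C134W against Vectors, 305 to 662 in FOXL2WT against Vectors, 215 to 412 in FOXL2WT+FOXO1 against Vectors and 2 to 7 in FOXL2WT+FOXO1 against FOXL2WT. The TPM scale of the MT2A to MT1E ratio was added after seeing the data. The replicate block alone called 0 of 6 in every comparison. Libraries with the same letter did not deviate together: 2 of 30 pairs had a correlation over 0.1 (range -0.16 to 0.17), and 5 of 15 libraries were most like one of their own letter, so the letters were not taken to pair samples. With at least 10 counts required in every sample MT1G could not be tested, and depth limits MT1G, MT1M and MT1F most, with 4 to 25, 27 to 71 and 41 to 101 counts per library.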
